A study of Mus musculus with 7 samples.

Results

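Transcript levels of 10 genes, mostly of calcium-responsive proteins, were examined in thymic T cells of mice. They were the S100 genes S100a4, S100a6, S100a10, S100a11 and S100a13, the annexin genes Anxa1, Anxa2, Anxa5 and Anxa6, and Capg. The genes were picked as calcium-binding genes of effector-like T cells, with the group differences in these same intensities already known. Their differences and calls are therefore a description of these arrays and no independent support for a direction. A gene was read through the probe sets that name it alone, and its main probe set was chosen by the highest mean intensity over all arrays. By that rule 9 of the 10 genes were measured, by 18 of 45037 probe sets, among 18193 genes in all. S100a11 was not measured, because its probe set also carries other gene symbols, 3 in all.

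Gene expression was read on 7 Affymetrix Mouse Genome arrays of cells sorted from the thymus of mice aged 4 to 6 weeks on a C57BL/6J background. Stage 1 natural killer T (NKT) cells, an early step in the maturation of these CD1d-restricted T cells, came from mice with a Valpha14 T cell receptor transgene (n = 2) and from Luxoid mutant mice with the same transgene (n = 3), which are deficient in the transcription factor PLZF. They were sorted as CD1d tetramer-binding cells with low CD24 and without CD44 or NK1.1. The third group was wild-type thymocytes positive for CD4 but not CD8, called CD4SP (n = 2). Contrasts with CD4SP thus span cell type and transgene together, and that of Luxoid NKT spans the mutation too. These cannot be told apart. Every sample was a pool of mice, called a biological replicate in the labels, and the cell type label of the CD4SP samples repeats the NKT sort while their titles and sources name CD4SP thymocytes. The comparison of the NKT groups addresses dependence on PLZF, and those with CD4SP address what sets stage 1 NKT apart from conventional thymocytes.

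S100 proteins are small proteins that mostly work as dimers. Most of them, though not S100a10, bind calcium through EF hands and change partner binding when calcium rises. Annexins bind acidic membrane phospholipids when calcium rises, and Anxa2 forms a complex with S100a10 under the plasma membrane. Capg, of the gelsolin family, caps the ends of actin filaments. In conventional T cells several of these genes are low in naive cells and higher in effector and memory cells.

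The main pattern was a gap between NKT cells and CD4SP thymocytes in S100a4, S100a6, Anxa2 and Capg that was large in both NKT groups. S100a4, S100a6 and Anxa2 were high in both NKT groups, and Anxa1 was dim (at most 117 in any array) and lower in Luxoid cells. To show what lies in front of these genes, the 250 bases before the annotated start are given for each. They are RefSeq sequences of GRCm38.p6, written 5′ to 3′ on the gene's strand, and 8 of the 10 genes had an entry in the table used. Capitals mark every match, on either strand, to any of 5 motifs. The AP-1 motif, bound by Fos and Jun proteins, was searched as TGANTCA. The E-box, a site of basic helix-loop-helix proteins, was searched as CANNTG. The Runx motif was searched as TGTGGT. The TATA motif of core promoters was searched as TATAAA. The GC box, bound by Sp proteins, was searched as GGGCGG. No match overlapped another in these windows.
S100a4 at chr3:90603520-90603769 (+ strand): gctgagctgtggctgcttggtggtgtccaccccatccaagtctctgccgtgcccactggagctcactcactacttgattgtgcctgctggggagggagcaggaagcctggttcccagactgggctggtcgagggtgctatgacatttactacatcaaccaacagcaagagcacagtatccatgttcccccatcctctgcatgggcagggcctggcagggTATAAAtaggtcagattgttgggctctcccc
S100a6 at chr3:90612644-90612893 (+ strand): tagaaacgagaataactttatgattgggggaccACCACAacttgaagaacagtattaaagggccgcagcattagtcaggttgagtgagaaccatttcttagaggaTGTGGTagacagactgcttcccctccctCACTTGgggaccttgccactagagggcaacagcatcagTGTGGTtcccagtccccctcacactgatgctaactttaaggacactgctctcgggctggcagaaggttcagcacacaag
Anxa2 at chr9:69453433-69453682 (+ strand): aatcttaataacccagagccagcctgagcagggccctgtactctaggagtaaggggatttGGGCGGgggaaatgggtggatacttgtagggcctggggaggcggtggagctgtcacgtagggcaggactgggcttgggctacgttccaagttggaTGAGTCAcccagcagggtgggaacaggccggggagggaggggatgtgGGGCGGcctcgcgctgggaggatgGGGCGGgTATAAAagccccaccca
Anxa1 at chr19:20390672-20390921 (- strand): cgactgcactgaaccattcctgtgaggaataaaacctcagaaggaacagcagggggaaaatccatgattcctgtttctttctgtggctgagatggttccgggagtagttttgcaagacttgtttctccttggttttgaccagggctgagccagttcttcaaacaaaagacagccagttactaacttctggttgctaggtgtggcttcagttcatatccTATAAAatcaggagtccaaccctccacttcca

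A TATA motif stood 31 bases before the start of S100a4, 17 before that of Anxa2 and 32 before that of Anxa1 (counted from the motif's first base), and none in the S100a6 window. Over all 32851 promoters of the table, 12.4% held that motif in a window of this length. The S100a6 window held 3 Runx motifs, a motif found in 4614 of the 32851 promoters, and 1 E-box, found in 66.2%. The Anxa2 window held 1 AP-1 motif (6.75% of promoters) and 3 GC boxes (32.7%), and the S100a4 window held no AP-1, Runx, GC box or E-box match. The 5 motifs thus gave no letter pattern shared by these 4 windows. A match is a run of letters, and no binding was measured.

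Levels are RMA intensities on the linear scale, and group levels are geometric means. Each difference is a log2 difference with its SE (±) from limma, fitted to all arrays and adjusted over 10874 genes with Benjamini-Hochberg, and a gene is called at an adjusted p under 0.05. Genes were tested if at least 2 arrays reached 82.0, the 50th percentile of all values, which is the floor used here for folds: if none of the arrays in the lower group reached it, the fold is taken against 82.0 and given as a lower bound. All 9 measured genes passed that filter, Anxa1 only through the 2 stage 1 NKT arrays. In bulk RNA, a smaller share of cells with a transcript and less of it per cell cannot be told apart.

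Arrays of 1 group correlated at 0.984 to 0.992 and arrays of different groups at 0.968 to 0.992 over all 45037 probe sets. Y-linked transcripts split every group. The summed intensity of 3 Y-linked genes was 27.0 to 30.1 in the arrays numbered 1 and 1324 or more in the other 4. Zbtb16, the PLZF gene, read 2751 and 3488 in stage 1 NKT, 1857, 2774 and 2645 in Luxoid NKT and 87.3 and 61.8 in CD4SP, which sets the NKT arrays apart from CD4SP. By this probe set the NKT groups overlapped, while its other 2 probe sets were lower in every Luxoid array than in both stage 1 NKT arrays (-0.87 ± 0.20 and -0.76 ± 0.13). None of them measures the protein. Cd24a, low by the sort, was under 82.0 in all NKT arrays and at 246 and 239 in CD4SP. Probe sets of Klrb1c, the NK1.1 gene, were not used here.

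S100a4 and S100a6 showed the widest gaps. S100a4, whose product binds non-muscle myosin and is linked to cell motility, read 5023 and 4989.8 in stage 1 NKT, 4516, 4780.4 and 3200.4 in Luxoid NKT and 77.5 and 117 in CD4SP. The NKT arrays stood far above both CD4SP arrays, which lay on either side of the filter. S100a4 was 52.7-fold above CD4SP in stage 1 NKT (5.72 ± 0.25, adjusted p = 8.69e-06) and 43.2-fold above it in Luxoid NKT (5.43 ± 0.23, adjusted p = 3.27e-06). Luxoid minus stage 1 NKT was -0.29 ± 0.23 with a 95% interval of -0.80 to 0.23 (adjusted p = 0.716). All Luxoid arrays were below both stage 1 NKT arrays, by a margin that did not pass the threshold.

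S100a6, or calcyclin, read 3881 and 4269 in stage 1 NKT, 2810.0, 2959 and 1914 in Luxoid NKT and 70.4 and 112 in CD4SP. Its groups ran in the order stage 1 NKT, Luxoid NKT, CD4SP without overlap. It exceeded CD4SP 45.8-fold in stage 1 NKT (5.52 ± 0.27, adjusted p = 1.28e-05) and 28.3-fold in Luxoid NKT (4.82 ± 0.25, adjusted p = 9.99e-06). The difference between the NKT groups, -0.69 ± 0.25, did not pass after adjustment (95% interval -1.26 to -0.13 before adjustment for multiple genes, adjusted p = 0.321). Without Luxoid array 3, the lowest of its group, it was -0.50 (adjusted p = 0.587), and for S100a4 it was -0.11 (0.961).

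S100a10, the partner of Anxa2, was bright in every group: 8537 and 9144 in stage 1 NKT, 8341, 9217 and 9068 in Luxoid NKT, and 4731 and 5526 in CD4SP. Both NKT groups lay above CD4SP and overlapped each other. By this probe set S100a10 exceeded CD4SP 1.73-fold in both stage 1 NKT (0.79 ± 0.15, adjusted p = 0.00988) and Luxoid NKT (0.79 ± 0.14, adjusted p = 0.00521). The first call was lost without either stage 1 NKT array (adjusted p = 0.0546 without array 1 and 0.0699 without array 2) or CD4SP array 1 (0.0701), and the second without CD4SP array 1 (0.0540). Luxoid minus stage 1 NKT was 0.01 ± 0.14 (95% interval -0.31 to 0.32, adjusted p = 0.994). The brightest S100a10 probe set is of the kind whose probes may also bind other transcripts, and a dimmer probe set of the same gene read 4636 and 3657, then 3770.4, 2575 and 2158, then 1251 and 997 in the same order of groups. There stage 1 NKT was 3.69-fold above CD4SP (1.88 ± 0.27) and Luxoid NKT 2.47-fold (1.30 ± 0.25), with a Luxoid difference from stage 1 NKT of -0.58 ± 0.25. The third probe set gave 2.30-fold and 2.28-fold and a Luxoid difference of -0.01 ± 0.15, so the probe sets shared the direction against CD4SP and differed in size.

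S100a13, which takes part in the release of proteins that lack a signal peptide, read 713 and 643 in stage 1 NKT, 586, 796 and 393 in Luxoid NKT and 394 and 473 in CD4SP. The Luxoid arrays spanned both other groups. None of its differences was called: 0.65 ± 0.29 for stage 1 NKT minus CD4SP (adjusted p = 0.181, and 0.0396 when only those groups were fitted), 0.40 ± 0.27 for Luxoid minus CD4SP (adjusted p = 0.368) and -0.25 ± 0.27 for Luxoid minus stage 1 NKT (adjusted p = 0.802, with 0.01 without Luxoid array 3). With the replicate number as a block, S100a13 was called against CD4SP in stage 1 NKT (0.65, adjusted p = 0.0367) and in Luxoid NKT (0.66, adjusted p = 0.0382). Number 3 occurs only in Luxoid NKT, so that fit in effect drops Luxoid array 3, the lowest of its group, from the differences.

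**Figure D1:**
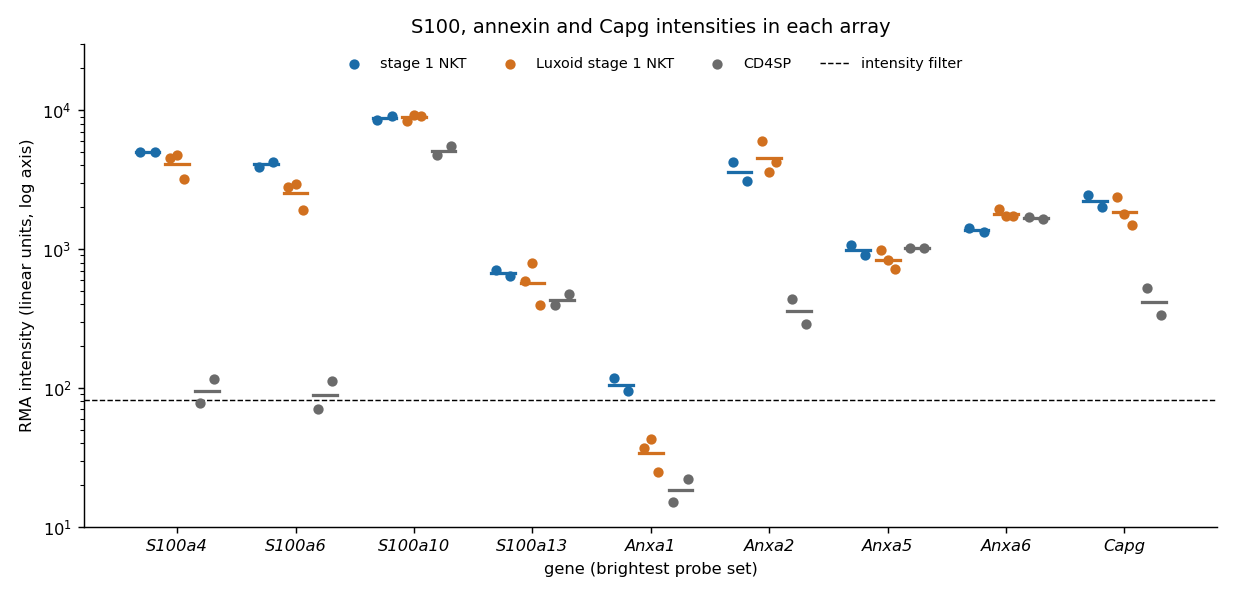
Intensity of the brightest probe set (linear RMA units on a log axis) of the 9 measured genes in each array, with points for arrays, short lines for geometric means and a dashed line at the filter of 82.0. S100a4, S100a6, Anxa2 and Capg stand far above CD4SP in both NKT groups, while Anxa5 and Anxa6 lie close together in all groups; levels of different genes are not comparable.

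Among the annexins, Anxa2 had the widest gap. It read 4229 and 3096 in stage 1 NKT, 5994, 3592 and 4224 in Luxoid NKT and 439.7 and 290.3 in CD4SP. Every NKT array lay above both CD4SP arrays, and the NKT groups overlapped. Against CD4SP, Anxa2 was up 10.1-fold in stage 1 NKT (3.34 ± 0.29, adjusted p = 0.000189) and 12.6-fold in Luxoid NKT (3.65 ± 0.27, adjusted p = 5.1e-05). Luxoid minus stage 1 NKT was 0.31 ± 0.27 (95% interval -0.29 to 0.92, adjusted p = 0.745). Averaged over its 3 probe sets the gaps were 1.31 and 1.63. Of the dimmer probe sets, one crossed the filter only in Luxoid NKT (94.4 to 97.6, against 68.1 and 71.6 in stage 1 NKT and 33.7 and 50.2 in CD4SP) and the other stayed at 8.27 to 11.2 in all arrays.

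Anxa1, a glucocorticoid-responsive annexin that acts on formyl peptide receptors, was the only measured gene of the set called between the NKT groups. It read 117 and 95.5 in stage 1 NKT, 36.7, 42.6 and 24.8 in Luxoid NKT and 15.1 and 22.1 in CD4SP. Only the stage 1 NKT arrays rose above the filter, by little. The gene was at least 1.29-fold lower in Luxoid NKT than in stage 1 NKT (-1.64 ± 0.26, adjusted p = 0.0178), and at least 1.29-fold above CD4SP in stage 1 NKT (2.53 ± 0.28, adjusted p = 0.000656). Because Anxa1 was tested through the group in which it was high, the call adds little to these values. The Luxoid call of Anxa1 was lost when stage 1 NKT array 1 (adjusted p = 0.195) or array 2 (0.138) was left out, and when both probe sets were averaged (-0.85, 0.0505). The other probe set of Anxa1 read 8.77 to 11.4 in all arrays. Luxoid minus CD4SP was 0.89 ± 0.26 (adjusted p = 0.0472), with both groups under the filter and therefore no fold. That call was lost in 11 of 17 alternatives (adjusted p = 0.0139 to 0.289 over all of them).

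Anxa5, which binds phosphatidylserine, was called in none of the comparisons. It read 1070.0 and 902 in stage 1 NKT, 990.5, 829 and 713 in Luxoid NKT and 1024 in both CD4SP arrays. The stage 1 NKT arrays lay on both sides of the CD4SP arrays, and all 3 Luxoid arrays lay below both CD4SP arrays. Its differences were -0.06 ± 0.19 for stage 1 NKT minus CD4SP (95% interval -0.48 to 0.37, adjusted p = 0.860), -0.29 ± 0.17 for Luxoid minus CD4SP (-0.68 to 0.10, 0.296) and -0.23 ± 0.17 for Luxoid minus stage 1 NKT (-0.62 to 0.16, 0.682).

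Anxa6, the largest annexin and a regulator of membrane and cholesterol traffic, ran the other way by its main probe set. It read 1429 and 1327 in stage 1 NKT, 1928, 1724 and 1743 in Luxoid NKT and 1711 and 1643 in CD4SP. Stage 1 NKT was the lowest group, and Luxoid NKT lay just above CD4SP without overlap. Luxoid minus stage 1 NKT was 0.38 ± 0.13 (adjusted p = 0.292) and stage 1 NKT minus CD4SP -0.28 ± 0.14 (0.230), neither called. A probe set at a like level gave 0.44 ± 0.17 and -0.35 ± 0.19. The remaining 2 probe sets of Anxa6 behaved differently: for these, CD4SP read 695 and 839 against 364 to 416 in all NKT arrays, and 359 and 317 against 132 to 221. Both NKT groups were lower than CD4SP there, with log2 differences of -0.97 ± 0.15 and -0.89 ± 0.23 for stage 1 NKT and -0.90 ± 0.14 and -0.95 ± 0.21 for Luxoid NKT, while Luxoid minus stage 1 NKT was 0.07 ± 0.14 and -0.05 ± 0.21. With all 4 probe sets averaged, stage 1 NKT minus CD4SP was -0.62 and called (adjusted p = 0.0171), and Luxoid minus CD4SP turned from 0.10 to -0.41 (0.0569).

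**Figure D2:**
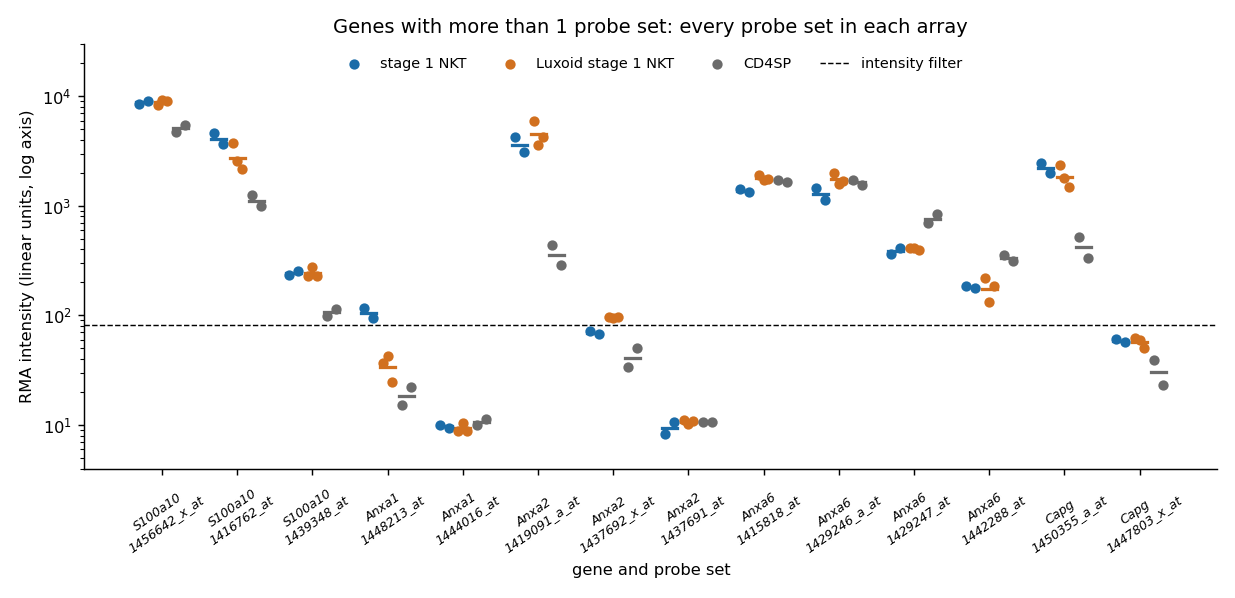
Intensity (linear RMA units on a log axis) of every probe set of the genes measured by more than 1, in each array, with geometric means as short lines and the filter of 82.0 dashed. The bright Anxa6 probe sets place CD4SP beside the NKT groups and the 2 dimmer ones place CD4SP above them; the dimmest probe sets of Anxa1 and Anxa2 stay near 10 in all groups, and the middle one of Anxa2 is highest in Luxoid NKT.

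Capg read 2449 and 2003 in stage 1 NKT, 2366, 1797 and 1483 in Luxoid NKT and 522 and 334 in CD4SP. All NKT arrays lay above CD4SP, and the NKT groups overlapped. Its excess over CD4SP was 5.31-fold in stage 1 NKT (2.41 ± 0.27, adjusted p = 0.000735) and 4.43-fold in Luxoid NKT (2.15 ± 0.25, adjusted p = 0.000672). Luxoid minus stage 1 NKT was -0.26 ± 0.25 (95% interval -0.83 to 0.31, adjusted p = 0.775). Its dimmer probe set stayed under the filter in all arrays and was also lowest in CD4SP (39.2 and 23.4, against 50.8 to 62.3).

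Over the set, 6 of the 9 measured genes were called higher in stage 1 NKT than in CD4SP and none lower, with a median difference of 2.41 against 0.06 over all genes tested. In that comparison 14.9% of all genes tested were called, 10.8% higher and 4.08% lower. In Luxoid NKT against CD4SP the same count was 6 of 9, with none lower and a median of 0.89 against 0.02. That median is the value of Anxa1, which is among the 6 although both groups lay under the filter. There 16.8% of all genes tested were called, 11.3% higher and 5.51% lower. The genes called were S100a4, S100a6, S100a10, Anxa1, Anxa2 and Capg in each. Both comparisons use the same CD4SP arrays. Between the NKT groups, where 1.55% of all genes tested were called, 1 of 9 was called lower in Luxoid (0.653% of all genes) and none higher (0.901%), and 3 had an unadjusted p under 0.05: S100a6, Anxa1 and Anxa6. The groups did not overlap for 4 of the 9 genes in that comparison, where 26.7% of all genes tested did not, and for 8 of 9 in each comparison with CD4SP, where 60.2% and 46.0% did not. Since the genes were picked with results known, nothing is read from these shares.

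Luxoid array 3 was the lowest of its group for 6 of the 9 genes (S100a4, S100a6, S100a13, Anxa1, Anxa5 and Capg), as it was for 33.8% of all genes tested. Stage 1 NKT array 2 was the lower of its pair for 7 of 9 (53.1% of all genes). With Y-linked expression as a covariate, each call of the set stood except that of Anxa1 in Luxoid minus CD4SP (adjusted p = 0.0623).

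**Figure D3:**
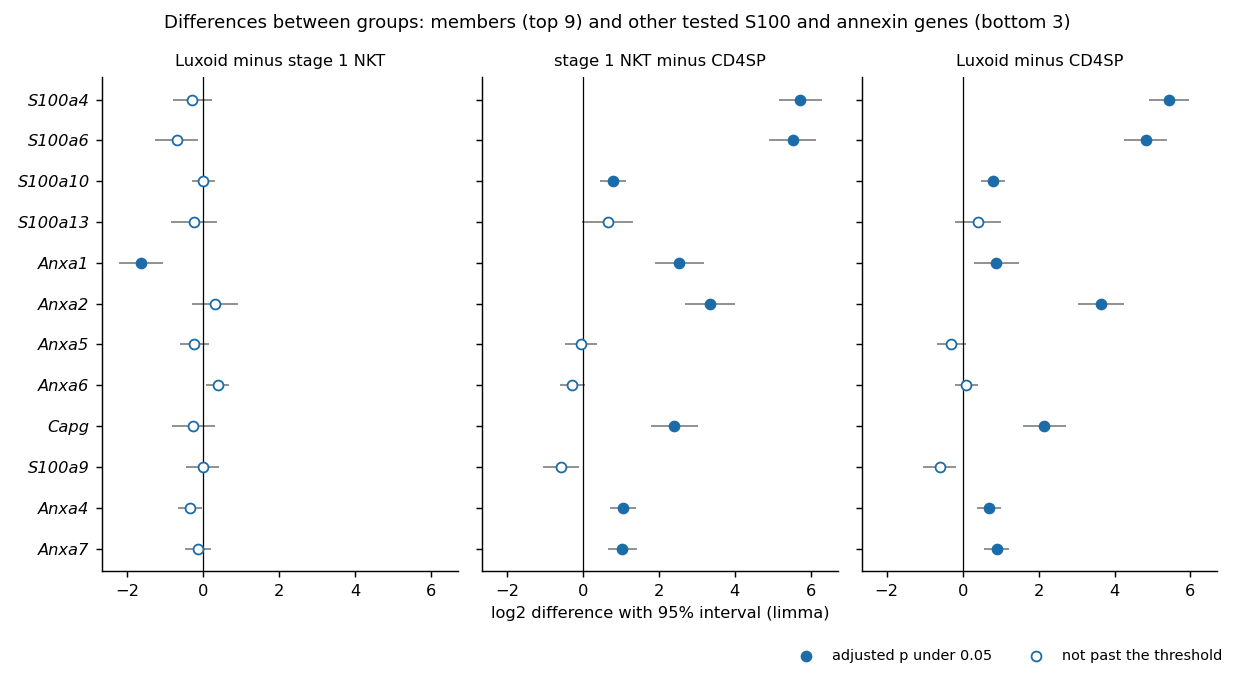
Log2 differences with 95% intervals from limma in the 3 comparisons, for the 9 genes of the set and the 3 other S100 and annexin genes that were tested; filled points were called at an adjusted p under 0.05. Between the NKT groups Anxa1 alone is filled, while S100a4 and S100a6 lie above 4 on the log2 scale against CD4SP.

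Other genes of these families were mostly dim. Of 11 further S100 genes 9 were measured and 1 reached the filter: S100a9, a myeloid alarmin, at 51.3 and 65.2 in stage 1 NKT, 51.8, 71.0 and 50.8 in Luxoid NKT and 82.2 and 90.9 in CD4SP. It passed the filter through the CD4SP arrays and was called in none of the comparisons (adjusted p = 0.103 and 0.0671 against CD4SP and 0.986 between the NKT groups), although some alternatives called it against CD4SP, such as the fit with the replicate number as a block (0.0245 and 0.0399). Most of the S100 genes named here lie together on chromosome 3 in the GRCm38.p6 annotation. S100a5 is the single protein-coding gene between S100a4 and S100a6, and it read 34.7 to 41.8 in all arrays, under the filter. S100a3, on the other side of S100a4 beyond S100a2, read 15.1 to 35.7, and S100a8, near S100a6, 27.5 to 38.5. S100a13 lies in the same run, and S100a10 and S100a11 lie together, 56 protein-coding genes further along. Of the measured S100 genes other than S100a4, S100a6, S100a10, S100a13 and S100a9, none reached the filter in any array.

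**Figure D4:**
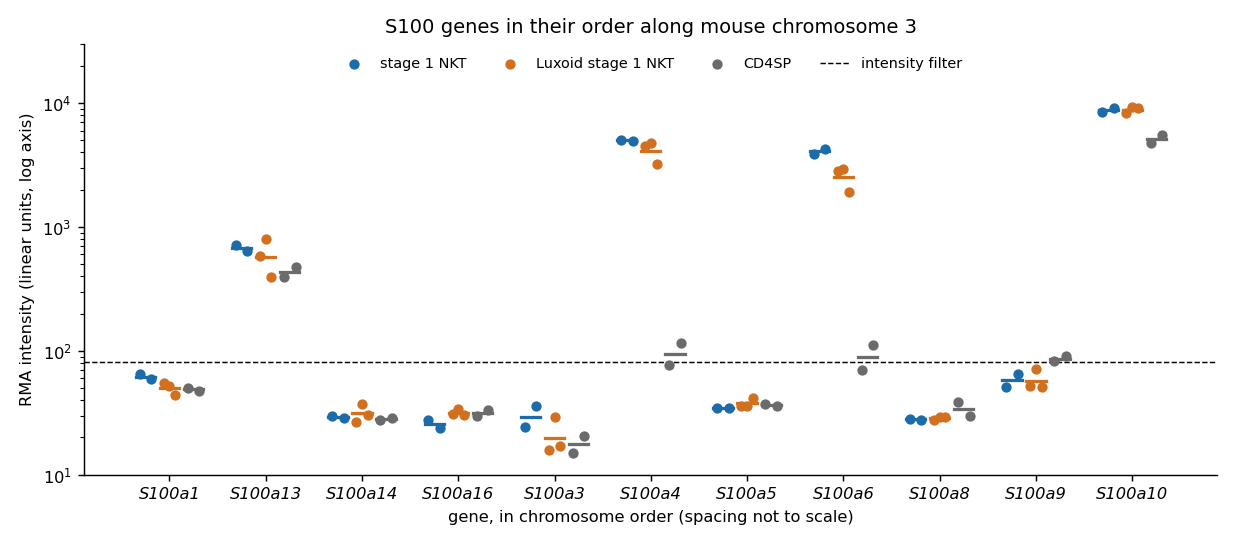
Intensity (linear RMA units on a log axis) of the measured S100 genes in their order along mouse chromosome 3, by array, with geometric means as short lines and the filter of 82.0 dashed. S100a5, between S100a4 and S100a6, stays under the filter in all 7 arrays; levels of different genes are not comparable.

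Of 8 further annexins 7 were measured and 2 tested, both called against CD4SP. Anxa7, an annexin of membrane fusion, read 620 and 795 in stage 1 NKT, 632, 620 and 655 in Luxoid NKT and 358 and 327 in CD4SP, with 2.05-fold (1.04 ± 0.16, adjusted p = 0.00415) and 1.86-fold (0.89 ± 0.15, 0.00445) differences. The latter was 0.42 (0.0638) with the mean of its probe sets. Anxa4, an annexin of epithelial and secretory membranes, read 234 and 209, then 185, 175 and 159, then 111 and 103, a 2.08-fold (1.05 ± 0.15, adjusted p = 0.00266) and a 1.62-fold (0.70 ± 0.14, 0.0103, and 0.0876 without CD4SP array 2) difference. Neither was called between the NKT groups (adjusted p = 0.361 for Anxa4 and 0.798 for Anxa7). Of the 7 other genes of the gelsolin family, 5 were tested (Gsn, Vill, Avil, Flii and Svil) and limma called none in any comparison. Between the NKT groups 1 had an unadjusted p under 0.05, Gsn, at 1192 and 1339.6 in stage 1 NKT and 1634, 2257 and 1973 in Luxoid NKT (0.62 ± 0.17, adjusted p = 0.147). Against CD4SP 0 of the 5 had such a p.

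Among 12 partners and receptors 7 were tested. Ahnak, a very large scaffold protein that binds the complex of S100a10 and Anxa2, was the member called higher against CD4SP: 5611 and 5664 in stage 1 NKT, 5547, 6121 and 5546 in Luxoid NKT and 1075 and 1153 in CD4SP. The NKT groups overlapped. It was 5.06-fold (2.34 ± 0.14, adjusted p = 3.08e-05) and 5.15-fold (2.36 ± 0.13, adjusted p = 1.32e-05) above CD4SP, and differed by 0.02 ± 0.13 between the NKT groups (adjusted p = 0.973). Its dimmer probe sets gave smaller gaps for stage 1 and Luxoid NKT: 2.04-fold and 1.83-fold, and at least 1.46-fold and 1.36-fold. The dimmest read 17.1 to 23.1 in all arrays, under the filter. Ager, a receptor for several S100 proteins, was lower in both NKT groups, at 248 and 239 and at 224, 248 and 212 against 393 and 359 in CD4SP (-0.63 ± 0.15, adjusted p = 0.0246, and -0.72 ± 0.14, 0.00764). The first call was lost without any 1 of the 4 arrays compared (adjusted p = 0.0805 to 0.127) and the second without CD4SP array 1 (0.0676). Myh9, the non-muscle myosin chain bound by S100a4, and Cacybp, a protein named for binding calcyclin, were not called in any comparison (differences of -0.22 to 0.23), nor were Pdcd6, Pdcd6ip and Sri. Between the NKT groups limma called 0 of the 7, and 0 had an unadjusted p under 0.05.

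All 12 genes listed as effector-like T cell genes were tested. Against CD4SP, 6 were higher in stage 1 NKT (Lgals1, Lgals3, Tagln2, Itgb1, Il18r1 and Ccr2) and 5 in Luxoid NKT (the same without Itgb1), while Cxcr3 was lower in Luxoid NKT. Ccr2 read 75.4 and 42.5 in CD4SP, under the filter, so it was tested only through the NKT arrays in which it was high. Between the NKT groups 3 were lower in Luxoid: Lgals3, encoding galectin 3, at -2.51 ± 0.16 on the log2 scale (adjusted p = 0.000275), Ccr2, a chemokine receptor, at -2.50 ± 0.27 (0.00266, and 0.0521 without stage 1 NKT array 2), and Cxcr3, another chemokine receptor, at -1.13 ± 0.18 (0.0208). The means of Cxcr3 lay under the filter in both NKT groups, and its call was lost in several alternatives (adjusted p = 0.0553 to 0.279). Calls of Lgals1, Itgb1, Tagln2 and Il18r1 against CD4SP were lost in at least 1 comparison without 1 of the CD4SP arrays (adjusted p = 0.0532 to 0.181). Crip1, Vim, Emp3, Cd44 and Itgb7 were not called in any comparison. The list's median between the NKT groups was -0.23, against -0.03 over all genes tested and -0.25 for the set.

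**Figure D5:**
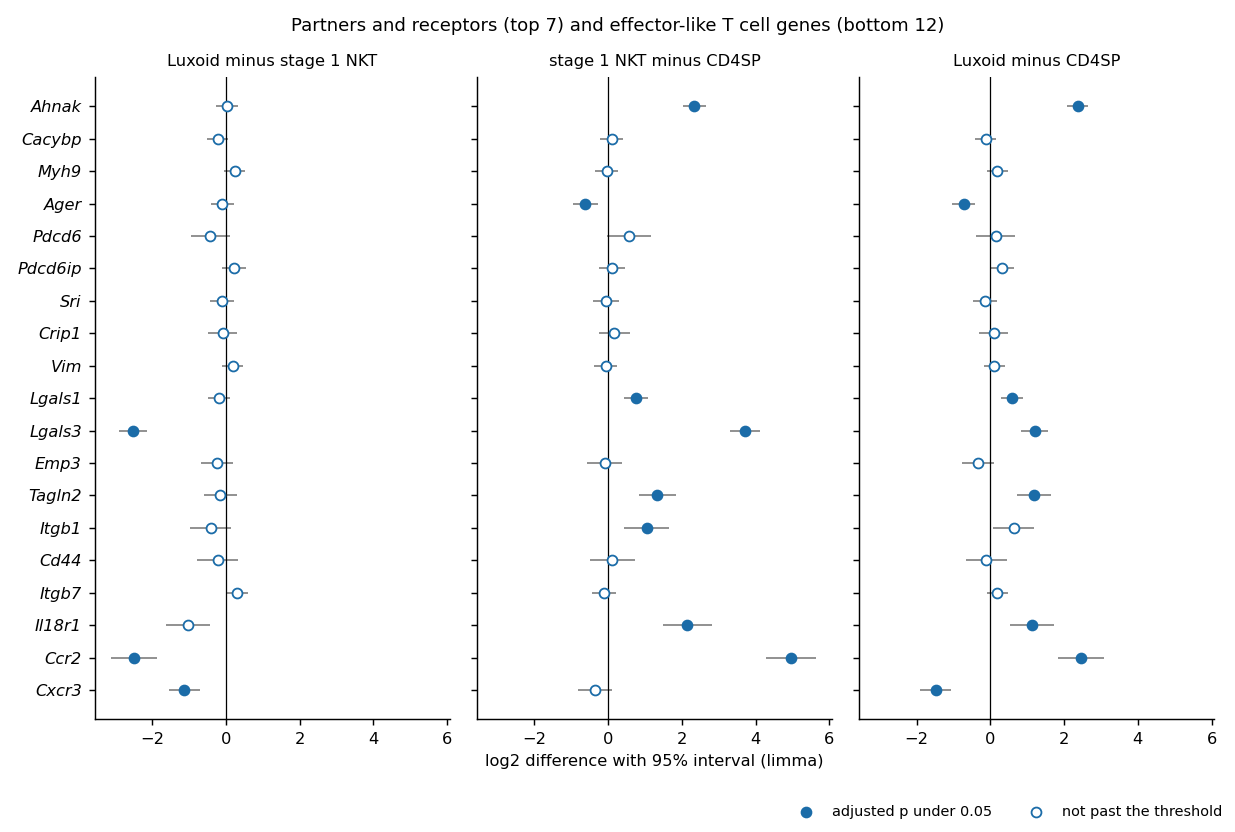
Log2 differences with 95% intervals from limma for the 7 tested partners and receptors (top) and the 12 effector-like T cell genes (bottom) in the 3 comparisons; filled points were called at an adjusted p under 0.05. Ahnak is filled against CD4SP and near 0 between the NKT groups, while Lgals3 and Ccr2 lie near -2.5 there.

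Markers of other cells were read beside the set, since several of its genes are also expressed outside T cells. Of 10 myeloid and dendritic markers 3 reached the filter, and the summed intensity of all 10 was 696 to 753 in stage 1 NKT, 749.6 to 843 in Luxoid NKT and 698 to 703 in CD4SP. Lyz2, Csf1r, Itgam, Itgax, Adgre1, Cd14 and Spi1 were under the filter in all 7 arrays. Cd68 (86.3 to 142), Cebpb (161 to 313) and Fcgr3 (98.0 to 192) were above it in all 7. Fcgr3 was the member called, above CD4SP in Luxoid NKT (0.73 ± 0.16, adjusted p = 0.0143). Of 8 epithelial and stromal markers 3 reached the filter, with sums of 456 to 543, 598 to 732 and 581 to 685 in the same order, and Col1a1, a collagen gene, was called higher in Luxoid than in stage 1 NKT (1.00 ± 0.15, adjusted p = 0.0152). Col1a1 read 60.6 and 79.1 in stage 1 NKT, under the filter, so the fold was at least 1.69. Markers of later NKT stages or NK cells summed to 2019 to 2540, 3750 to 4354 and 1034 to 1060, led by Il2rb, at 1472 and 2095, then 3285, 3812 and 3240.3, then 675 and 593. Il2rb was called higher in Luxoid than in stage 1 NKT (0.97 ± 0.18, adjusted p = 0.0389). Of the same list, Tbx21 was lower in every Luxoid array than in both stage 1 NKT arrays (-0.48 ± 0.16, adjusted p = 0.266). Klrd1, Ccl5 and Gzma were not called between the NKT groups. Of the T cell markers, Cd8a was called higher in Luxoid than in stage 1 NKT (0.86 ± 0.16, adjusted p = 0.0342). It read 82.3 and 93.6 in stage 1 NKT, near the filter, and its dimmer probe sets were under 82.0 in all arrays. Cd3e, Cd3d, Cd4 and Cd8b1 were not called in that comparison. Against CD4SP, Cd4 was called lower in stage 1 NKT (-1.61 ± 0.16, adjusted p = 0.000322) and Luxoid NKT (-1.49 ± 0.14, 0.000251). Cd8b1 was also called lower in both (0.0136 and 0.0145), at 223 and 268 in CD4SP and 43.8 to 123 in the NKT arrays. Cd8a was called lower in stage 1 NKT alone (0.0302), and Cd3e and Cd3d in neither. Markers of naive or recirculating T cells summed to 3687 to 4223 in stage 1 NKT, 5102 to 5404 in Luxoid NKT and 7329 to 7957 in CD4SP. The sums of 3 B cell markers were 244 to 294, 218 to 323 and 198 to 225. Of these, Cd79b was called higher than CD4SP in stage 1 and Luxoid NKT (adjusted p = 0.00548 and 0.00314), at least 2.09-fold and 2.04-fold. It read 66.2 and 43.0 in CD4SP, under the filter, so it was tested only through the NKT arrays in which it was high. Cd79a was called lower than CD4SP in stage 1 and Luxoid NKT (0.0408 and 0.0378), and Ms4a1 was under the filter in all arrays. The part of these cells in the differences of the set was not tested.

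The tested genes whose log2 values over the 7 arrays followed S100a4 most closely were Tns4, Plac8 and S100a6 (Pearson r = 0.997 each). For S100a6 they were Plac8, S100a4 and Smpdl3a (0.997, 0.997 and 0.996), and for Anxa2 Tstd3, Aurka and Spry2 (0.999, 0.997 and 0.996). The 7 points share their groups, and 332, 284 and 341 of 10874 genes had an r over 0.95 with S100a4, S100a6 and Anxa2.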

How the data were processed

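Per the labels, RNA of sorted cells was amplified and biotin-labelled as cDNA, with 1 array per sample. Per the submitters' processing notes, the deposited values were made with RMA in Affymetrix Expression Console; no versions were found there. They are deposited as linear intensities, from which log2 was taken.

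Gene symbols came from the array's annotation in GEO: of 45037 probe sets, 34945 had 1 gene symbol, 932 several and 9160 were not listed. The brightest probe set of each of 18193 genes was kept, and 10874 genes reached 82.0 in 2 or more arrays and were tested. A mean per group was fitted by limma 3.58.1 under R 4.3.3 (functions lmFit and eBayes, 4 residual and 4.49 prior degrees of freedom), two-sided, and the script was tested on simulated data. With 7 arrays, their number limits the precision. The genes and lists were chosen with earlier results of these data known. Named were all genes of the set, other S100, annexin and gelsolin genes that were tested, called genes of other lists (up to 4 per comparison, with the effector-like list's members of smaller changes added after their values were seen), Zbtb16, marker genes and the 3 genes most like S100a4, S100a6 and Anxa2. Of the promoter table, windows of 250 bases were used. Alternatives were 11 other settings and leaving out each of the 7 arrays.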

Additional observations from a re-analysis of the deposited data

How the results depend on the processing

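Of 161 values of the 9 genes under the alternatives in each comparison, 149 kept direction and side of the threshold between the NKT groups, 154 for stage 1 NKT minus CD4SP and 147 for Luxoid minus CD4SP. The sign turned in 9, 1 and 1 of them. Over all genes listed, no value that turned was called before or after, with adjusted p from 0.0569 up. For Luxoid minus stage 1 NKT, values spanned 0 when 1 array was left out for S100a10 (-0.044 to 0.055), S100a13 (-0.50 to 0.012), S100a9 (-0.19 to 0.16), Anxa7 (-0.32 to 0.035), Svil (-0.042 to 0.39), Ahnak (-0.023 to 0.048), Sri (-0.21 to 0.014), Crip1 (-0.15 to 0.024), Tagln2 (-0.38 to 0.080) and Cd44 (-0.61 to 0.18), and the sign turned with the mean of probe sets for S100a10 (-0.20), array weights for S100a10 (-0.00094), the replicate block for S100a10 (-0.011), S100a13 (0.012), S100a9 (0.070) and Crip1 (0.024), Y-linked covariate for S100a10 (-0.016) and median centring for S100a9 (0.0040). For stage 1 NKT minus CD4SP, values spanned 0 when 1 array was left out for Anxa5 (-0.18 to 0.063), Vill (-0.091 to 0.13), Svil (-0.19 to 0.24), Myh9 (-0.10 to 0.010), Sri (-0.17 to 0.057), Crip1 (-0.031 to 0.37), Emp3 (-0.36 to 0.18) and Cd44 (-0.28 to 0.50), and the sign turned with second quantile normalization for Svil (-0.061) and the mean of probe sets for Cd44 (-0.021). For Luxoid minus CD4SP, values spanned 0 when 1 array was left out for Pdcd6 (-0.048 to 0.32) and Crip1 (-0.12 to 0.29), and the sign turned with the mean of probe sets for Anxa6 (-0.41). The count of 1 gene of the set called between the NKT groups (Anxa1) became 0 with the mean of probe sets (3 with an unadjusted p under 0.05 in limma) and 0 with the filter at the 75th percentile, 307, which leaves Anxa1 out (2). It ranged from 0 to 1 when 1 array was left out. The counts against CD4SP were 5 to 6 for stage 1 NKT and 4 to 6 for Luxoid NKT with 1 array left out. Over all genes, leaving out 1 array gave 55 to 178 called genes between the NKT groups (169 with all arrays, and 64, 55 and 103 without stage 1 NKT array 1, array 2 and Luxoid array 3), 643 to 1846 for stage 1 NKT minus CD4SP (1621, and 643, 749, 856 and 714 without stage 1 NKT array 1 and 2 and CD4SP array 1 and 2) and 866 to 1726 for Luxoid minus CD4SP (1831, and 978 and 866 without CD4SP array 1 and 2). Leaving out an array of a pair leaves a lone array, taken to vary like the other groups. With the replicate number as a block, 2616 genes were called for stage 1 NKT minus CD4SP, and 170 and 2299 for the other comparisons; of the set 1, 7 and 7 were called between the NKT groups and for stage 1 and Luxoid NKT minus CD4SP, S100a13 being added (adjusted p = 0.0367 and 0.0382). Same-numbered arrays deviated together (r = 0.33 to 0.49). In a group of 2 the arrays deviate by equal and opposite amounts, so these r values are not independent of each other. The arrays numbered 1 were also those low in Y-linked transcripts. The labels do not say that a number marks a shared animal or batch. Groups also share only 2 numbers, so the pairing was not used. Number 3 occurs only in Luxoid NKT, so the fit with the block in effect drops Luxoid array 3. For the set, its differences between the NKT groups were those of the fit without that array. Signals near the filter limit what can be said of Anxa1 and of S100a4 and S100a6 in CD4SP.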
